A study of Mus musculus with 53 samples.

Results

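Rag1, Rag2, Dntt and Ptcra, which act in the assembly and first use of the T-cell receptor, were followed across mouse T-cell lymphoblast tumours of 15 genetic backgrounds. They were taken by name, with every probe set that the platform's gene table assigns to them. They are 4 of 12393 genes with a single symbol, and their probe sets are 6 of 22690 on the array. Rag1, Rag2 and Ptcra had 1 probe set each. Dntt had 3, of which the brightest over all arrays stands for the gene.

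Antigen receptor genes are built by V(D)J recombination. The RAG1 and RAG2 proteins form the nuclease that cuts at recombination signals: RAG1 holds the DNA-binding and cutting activities, and RAG2 is its cofactor, which also reads a histone mark. TdT, the product of Dntt, adds untemplated nucleotides to the opened ends before they are joined. Ptcra encodes pre-Tα, the invariant chain that pairs with a newly made T-cell receptor β chain, and with CD3 proteins forms the pre-T-cell receptor that selects immature thymocytes. All of these genes are active in immature thymocytes, and Ptcra is switched off as cells pass to later stages. E proteins such as E2A, the Notch pathway, Ikaros and RUNX1 are known regulators of some of them, and several of the backgrounds carry lesions in these regulators.

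The tumours came from C57BL/6 mice and had no treatment, and 53 samples had 1 array each. Of these, 6 samples, called crossed tumours here, came from mice with the TLX1 transgene and heterozygous loss of a RUNX gene, whose titles name RUNX1 and whose status label says TLX1 negative. TLX1 transgenic mice, with the status label TLX1 positive, gave 6. The remaining 41 carry the label TLX1 negative. Among them, 9 came from Cdkn2a knockout mice in which a retrovirus was used for insertional mutagenesis. The titles of these 9 differ, and name myc, ras, myc with ras, myb, or pim1 with ccnd3. They are kept as 1 group by their shared genotype label, so they are not replicates of a single title. Groups of 3 were from beta-catenin transgenic, Ikaros plastic, Olig-LMO1 double transgenic, LMO1 transgenic, Tal1-LMO2 double transgenic, NUP98-HOXD13 transgenic, p53 knockout and ThPOK transgenic mice. Groups of 2 were from Rag E2A knockout, E2A knockout, Tal1 transgenic and Pokemon transgenic mice. The label does not say which Rag gene the Rag E2A knockout lacks, the Olig gene is olig1 in the genotype and olig2 in the titles, and the labels do not name the promoters that drive the transgenes. Nothing says that the samples of a background are separate animals, so p-values measure the spread between samples, which may be technical. All levels below are log2 of the authors' normalized intensity, and levels of different probe sets are not set against each other.

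The arrays fell into sets by their bacterial control transcripts, which carry no mouse RNA. No other background shared the set of the 6 crossed arrays, the 6 TLX1 arrays shared a set with p53 knockout replicates 1 and 2, Tal1-LMO2 replicate 2 stood alone, and 38 arrays formed the largest set. The log2 difference between the 3' and 5' beta-actin signals, a difference that degraded RNA widens, was 0.77 ± 0.11 (SD, n = 6) in crossed tumours, 1.39 ± 0.62 (n = 6) in TLX1 tumours and 0.31 ± 0.31 (n = 41) in the others. The array median was lower in crossed tumours, at 8.61, against 8.99 in TLX1 tumours and 8.94 in the others. Of 8 T-lineage markers measured, 7 or 8 lay above the array median in the mean of every background. On single arrays p53 knockout replicate 2 stood apart: 3 of the 8 were above the median and their mean level was 9.02, the lowest of all 53 arrays. Crossed replicate 1 was next, at 10.41. In bulk samples such as these, fewer cells of a type and less RNA per cell cannot be told apart. The 8 measured B-lineage markers, of interest because B-cell precursors also use Rag1, Rag2 and Dntt, had 1 to 4 members above the median in a background. Igll1 was above it in all 15 backgrounds, and LMO1 tumours had 4 (Cd79a, Cd79b, Igll1 and Blnk). On LMO1 replicates 1, 2 and 3, 1, 5 and 3 of the 8 were above it. The mean B-lineage level of LMO1 replicate 2, 9.31, was the highest of all arrays.

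The promoters of the members are shown because the levels of several members moved together. Sequences are from RefSeq on build GRCm38.p6, from 250 bases before to 50 bases after the annotated start, read 5′ to 3′ on the gene's strand. Capitals mark 4 motifs searched on both strands: the E-boxes CAGCTG and CAGGTG (reverse CACCTG), the RUNX motif TGTGGT (reverse ACCACA), and TGGGAA (reverse TTCCCA), a core shared by the binding sequences of the Notch partner CSL and of Ikaros. None of the marked matches overlap. All 4 members were found in the table.
Rag1, chr2:101649483-101649782, minus strand: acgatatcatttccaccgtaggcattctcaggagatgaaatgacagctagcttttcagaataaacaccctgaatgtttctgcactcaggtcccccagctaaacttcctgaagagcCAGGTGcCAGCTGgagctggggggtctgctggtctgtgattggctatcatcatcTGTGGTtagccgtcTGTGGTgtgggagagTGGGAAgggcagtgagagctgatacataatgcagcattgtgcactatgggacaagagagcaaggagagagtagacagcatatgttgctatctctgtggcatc
Rag2, chr2:101624462-101624761, plus strand: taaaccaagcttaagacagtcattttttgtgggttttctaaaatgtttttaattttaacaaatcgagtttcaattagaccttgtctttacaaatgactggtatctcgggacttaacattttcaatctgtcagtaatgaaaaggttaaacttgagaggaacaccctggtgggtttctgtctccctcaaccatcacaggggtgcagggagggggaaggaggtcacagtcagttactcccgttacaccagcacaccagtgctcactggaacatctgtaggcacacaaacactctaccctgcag
Dntt, chr19:41029025-41029324, plus strand: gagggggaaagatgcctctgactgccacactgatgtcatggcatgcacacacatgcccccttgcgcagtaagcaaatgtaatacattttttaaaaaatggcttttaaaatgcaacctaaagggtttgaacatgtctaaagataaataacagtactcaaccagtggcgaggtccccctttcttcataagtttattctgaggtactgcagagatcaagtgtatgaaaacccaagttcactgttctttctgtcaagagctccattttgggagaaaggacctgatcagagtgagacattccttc
Ptcra, chr17:46763663-46763962, minus strand: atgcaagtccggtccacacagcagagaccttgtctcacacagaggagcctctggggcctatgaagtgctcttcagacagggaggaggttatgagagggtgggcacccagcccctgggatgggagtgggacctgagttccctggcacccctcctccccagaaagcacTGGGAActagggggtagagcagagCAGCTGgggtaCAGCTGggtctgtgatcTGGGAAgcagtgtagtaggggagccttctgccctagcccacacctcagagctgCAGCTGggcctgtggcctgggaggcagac

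The Ptcra window held CAGCTG 3 times, at 60 and 49 bases before and 21 bases after the start, and TGGGAA 2 times, at 84 and 32 bases before it. CAGCTG occurs in 16.3% of 32851 promoter windows of this length, and 3 or more copies occur in 0.207%. TGGGAA occurs in 25.6%, and 2 or more copies in 3.79%. The Rag1 window held CAGGTG 135 bases and CAGCTG 128 bases before the start, TGTGGT at 81 and 67 bases before it and TGGGAA at 52 bases before it. CAGGTG occurs in 20.2% of windows, TGTGGT in 16.8%, and 2 or more copies of TGTGGT in 1.81%. The Rag2 and Dntt windows held none of these letters. The looser E-box CANNTG, which covers both E-boxes above and is not marked, occurred 4 times in Rag1, 2 times in Rag2, 3 times in Dntt and 3 times in Ptcra, and 72.3% of windows hold it. A match of letters describes the window and is not a measured binding site.

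All 4 members passed the filter on dim genes. Dntt lay above the array median on 52 of 53 arrays, Rag1 on 45, Rag2 on 30 and Ptcra on 28. All 4 were above it on 20 arrays, 3 on 16, 2 on 10 and 1 on 7. Their means differed over the 15 backgrounds, by moderated F tests in limma with Benjamini-Hochberg adjustment over 9156 genes. F was 23.6 for Rag2 (adjusted p = 3.64e-14), 6.77 for Ptcra (1.92e-06), 4.32 for Rag1 (0.000209) and 3.55 for Dntt (0.00114). Such a call was made for 89.2% of all genes, so it does not set the members apart. Without the TLX1 and crossed arrays the call for Rag1 was lost (F = 1.82, adjusted p = 0.105).

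The members differed from most genes in how far samples of the same background lay apart. The SD between arrays of a background was 1.18 for Rag1, 1.01 for Ptcra, 0.99 for Dntt and 0.42 for Rag2, against a median of 0.25 over all genes tested. These SDs exceeded those of 99.7%, 99.4%, 99.2% and 85.0% of genes in the same order. Background accounted for 89.1% of the variance of Rag2, 69.7% of that of Ptcra, 59.5% of that of Rag1 and 54.7% of that of Dntt, where the median gene had 64.2%. Every member thus had most of its variance between backgrounds, and Rag2 had the largest share of it there.

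**Figure D1:**
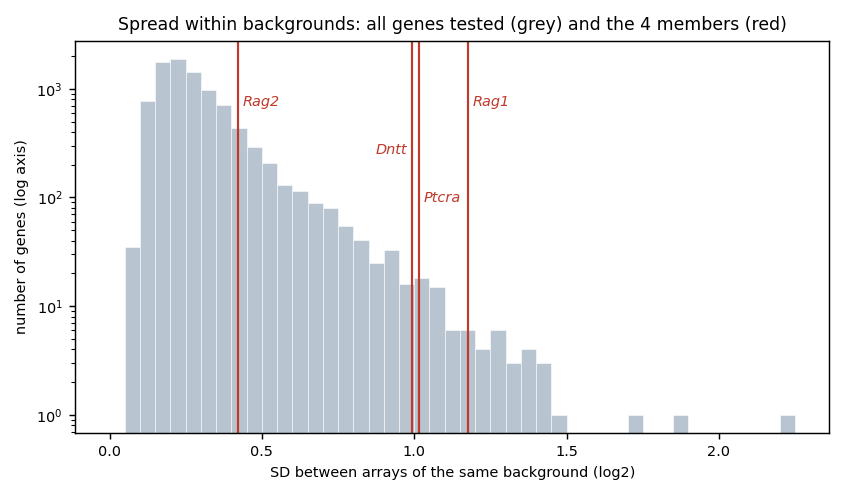
Number of genes (log axis) by the SD between arrays of the same background, in log2 units, for all 9156 genes tested. Red lines mark the members: Rag2 at 0.42, Dntt at 0.99, Ptcra at 1.01 and Rag1 at 1.18.

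**Figure D2:**
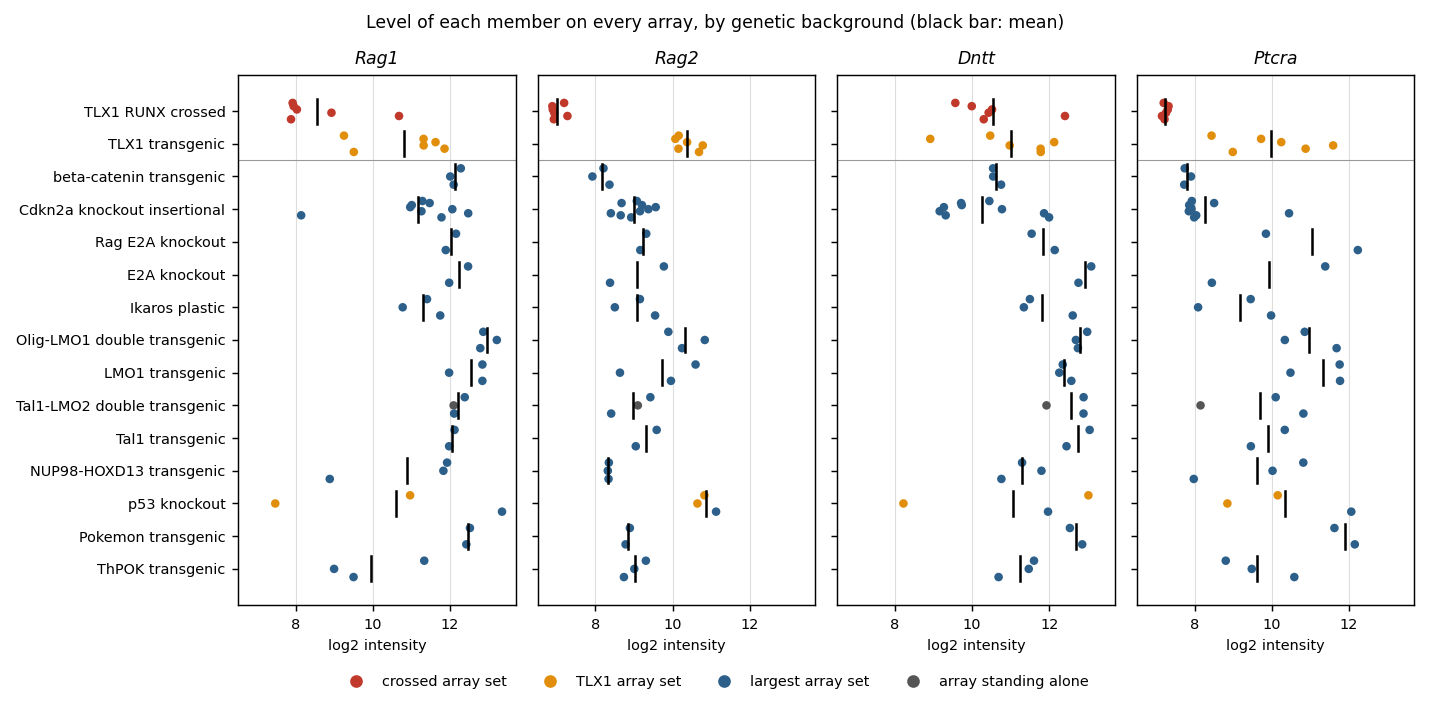
Level (log2 intensity) of each member on every array, with backgrounds down the page, the mean as a black bar and colours for the array sets. Crossed tumours are lowest for Rag1, Rag2 and Ptcra, and p53 knockout, NUP98-HOXD13 and Cdkn2a tumours have single arrays far from the others for Rag1.

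Each background was set against the mean of the other 14 background means. Of 60 pairs of member and background, 12 passed the test, and 4 of these belonged to crossed tumours. Rag2 passed in 6 backgrounds, Ptcra in 3, Dntt in 2 and Rag1 in 1. The share of all genes called differed widely between these comparisons, from 1.91% in Rag E2A knockout tumours to 63.6% in crossed tumours. The other calls lay in Cdkn2a knockout (48.3% of genes called), TLX1 (47.4%), p53 knockout (44.1%), beta-catenin (36%), Olig-LMO1 (9.58%) and NUP98-HOXD13 tumours (2.12%). No share was pooled over the comparisons, so these counts are not read as setting the members apart from other genes. No member passed in E2A knockout (2.77% of genes called), Tal1 (3.63%) or Tal1-LMO2 tumours (4.5%).

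Rag1 had its highest mean in Olig-LMO1 tumours, which read 12.78, 12.86 and 13.21. LMO1 (mean 12.55), Pokemon (12.47), E2A knockout (12.22), Tal1-LMO2 (12.19), beta-catenin (12.12), Tal1 (12.04) and Rag E2A knockout tumours (12.02) followed. In these 8 backgrounds the samples of each lay within 0.86 of each other. The next were Ikaros plastic (11.31), Cdkn2a knockout (11.16), NUP98-HOXD13 (10.88), TLX1 (10.81), p53 knockout (10.59), ThPOK (9.94) and crossed tumours (8.56). Of the 14 steps in this order, the last alone, 1.38, exceeded the SD within backgrounds. After centring of the arrays on their medians it was 0.98 and did not.

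The SD of Rag1 within a background was widest in p53 knockout (2.96) and NUP98-HOXD13 tumours (1.73). It was 1.24 in Cdkn2a knockout, 1.23 in ThPOK, 1.13 in TLX1 and 1.11 in crossed tumours, and 0.50 or less in every other background. p53 knockout replicates 1, 2 and 3 read 10.96, 7.47 and 13.35, the lowest and the highest of all 53 arrays among them. Replicate 2 is the array with few T-lineage markers. Without it the Rag1 difference of p53 knockout tumours was 0.64 ± 0.70 (adjusted p = 0.553), against -0.92 ± 0.68 (adjusted p = 0.275) with it. Without replicate 3 it was -2.30 ± 0.73 and passed (adjusted p = 0.00878), so the value for Rag1 in these tumours turns on single arrays. NUP98-HOXD13 replicates 1 and 2 read 11.92 and 11.83, and replicate 3 read 8.88. Their T-lineage markers had close mean levels of 11.83, 11.66 and 11.64, while the mean level of 7 myeloid markers was 9.17, 9.71 and 10.72. The part of other cells in the low Rag1 reading of replicate 3 was not tested. ThPOK samples read 11.33, 8.99 and 9.50, and their difference of -1.62 ± 0.68 did not pass (adjusted p = 0.0691, 26.9% of genes called). It passed within the largest array set (-2.17 ± 0.55, adjusted p = 0.00314, 35% of genes called).

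Rag2 had its highest mean in p53 knockout tumours, at 10.83, 10.64 and 11.13. The difference from the other backgrounds was 1.83 ± 0.25 (SE; adjusted p = 1.24e-07, 44.1% of genes called). Replicate 3, the only array of this background in the largest set, stood 2.04 above the mean of the other backgrounds there (14.3% of genes called). With 1 array, the fit in that set takes the spread wholly from other backgrounds, so this value has no replicate check. Over all arrays but replicate 2, the difference was 1.94 ± 0.30 (adjusted p = 5.98e-06). Rag2 was high in all 3 samples, while Rag1 ranged over 5.88 log2 units among the same 3.

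TLX1 tumours came next for Rag2, with 10.07 as the lowest, 10.27 as the median and 10.78 as the highest of 6. They stood 1.30 ± 0.18 above the other backgrounds (adjusted p = 1.02e-07, 47.4% of genes called). With array set as a block and without the crossed arrays the call was lost (1.52 ± 0.55, adjusted p = 0.106); their set holds no other arrays than p53 knockout replicates 1 and 2, whose Rag2 was 10.83 and 10.64. Olig-LMO1 tumours read 9.89, 10.84 and 10.24, a difference of 1.25 ± 0.25 (adjusted p = 0.0012, 9.58% of genes called). All samples of these 3 backgrounds lay above 9.8, and of the other 41 samples only LMO1 replicates 1 and 3, at 10.60 and 9.96, did so. LMO1 tumours as a group, with replicate 2 at 8.64, did not pass (0.61 ± 0.25, adjusted p = 0.0909, 11.2% of genes called). That replicate is the array with the highest B-lineage marker level, and the part of other cells in its Rag2 reading was not tested.

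The low end of Rag2 held 3 backgrounds. Crossed tumours read 6.88 to 7.27, with a median of 6.93, and differed from the other backgrounds by -2.29 ± 0.18 (adjusted p = 1.37e-14, 63.6% of genes called). Beta-catenin tumours read 8.21, 7.92 and 8.36 and differed by -1.06 ± 0.25 (adjusted p = 0.000626, 36% of genes called). NUP98-HOXD13 tumours read 8.35, 8.32 and 8.34, within 0.03 of each other, and differed by -0.88 ± 0.25 (adjusted p = 0.0447, 2.12% of genes called). The call in NUP98-HOXD13 tumours was lost in 16 of 53 refits that each left out 1 array. No sample of these 3 backgrounds was above its array median for Rag2. In the order of the 15 means, 4 of 14 steps exceeded the SD within backgrounds, the largest being the 1.15 between beta-catenin and crossed tumours, whose samples did not overlap. With each array centred on its median this step was 0.68, and the samples of these backgrounds remained apart for Rag2.

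Dntt had high means in E2A knockout (12.92), Olig-LMO1 (12.81), Tal1 (12.75), Pokemon (12.69), Tal1-LMO2 (12.57) and LMO1 tumours (12.39). Rag E2A knockout (11.84), Ikaros plastic (11.82), NUP98-HOXD13 (11.28), ThPOK (11.25), p53 knockout (11.07) and TLX1 tumours (11.01) lay between. Beta-catenin (10.61), crossed (10.53) and Cdkn2a knockout tumours (10.25) were lowest. No step in this order exceeded the SD within backgrounds.

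Dntt fell in Cdkn2a knockout tumours, by 1.57 ± 0.35 on the log2 scale (adjusted p = 0.000287, 48.3% of genes called). The 9 samples had 9.16 as the lowest, 9.73 as the median and 12.00 as the highest. Replicates 7 and 9 read 11.87 and 12.00 and the other 7 lay at or below 10.77. Samples of beta-catenin, crossed, TLX1, p53 knockout, ThPOK and NUP98-HOXD13 tumours also lay at or below 10.77. The title of replicate 7 names a myc mix. That of replicate 9 names myb, as does that of replicate 6, which read 9.16. By its other probe sets Dntt differed by -1.95 ± 0.40 (adjusted p = 9.94e-05) and -0.68 ± 0.21 (adjusted p = 0.00742) in these tumours. The second Dntt call, in crossed tumours, was -1.27 ± 0.42 (adjusted p = 0.00769, 63.6% of genes called). The other probe sets gave -1.24 ± 0.48 (adjusted p = 0.0216) and, for the dimmest, -0.49 ± 0.25, which did not pass (adjusted p = 0.0869). Beta-catenin tumours, at 10.54, 10.55 and 10.75, did not pass over all arrays (-1.19 ± 0.57, adjusted p = 0.1). Within the largest array set they did (-1.46 ± 0.40, adjusted p = 0.00448, 42% of genes called). p53 knockout tumours read 13.01, 8.22 and 11.97, the lowest again in replicate 2. Their Dntt difference was -0.70 ± 0.57 (adjusted p = 0.331), and it passed without replicate 1 (-1.67 ± 0.64, adjusted p = 0.0343).

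Ptcra, the gene of pre-Tα, fell in 3 backgrounds. Beta-catenin tumours read 7.74, 7.91 and 7.73, all below the array median, and differed by -2.13 ± 0.58 (adjusted p = 0.00359, 36% of genes called). The mean level of 7 myeloid markers on these arrays was 10.16, 11.14 and 11.06, and 5, 1 and 2 of 8 B-lineage markers lay above the array median, with 8 of 8 T-lineage markers above it on each. The part of other cells in the low Ptcra was not tested. Cdkn2a knockout tumours had 7.85 as the lowest, 7.93 as the median and 10.45 as the highest of 9, with 8 below the array median, and differed by -1.62 ± 0.36 (adjusted p = 0.000259, 48.3% of genes called). Crossed tumours read 7.15 to 7.33, all below the array median, and differed by -2.72 ± 0.43 (adjusted p = 4.8e-07, 63.6% of genes called). After centring on the array median, crossed and beta-catenin samples overlapped for Ptcra, at -1.47 to -1.23 and -1.35 to -1.19. In beta-catenin tumours the low Ptcra stood beside Rag1 levels of 12.00 to 12.28, and Rag1 in them did not differ from the other backgrounds beyond the test (0.72 ± 0.68, adjusted p = 0.432).

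High Ptcra means were seen in Pokemon (11.89), LMO1 (11.34), Rag E2A knockout (11.04) and Olig-LMO1 tumours (10.96), none past the test. Pokemon tumours read 11.63 and 12.15 (2.25 ± 0.70, adjusted p = 0.0826, 2.21% of genes called). LMO1 tumours read 11.76, 10.49 and 11.77 (1.66 ± 0.58, adjusted p = 0.0549, 11.2% of genes called). In other backgrounds single samples lay far apart: E2A knockout tumours read 11.39 and 8.45, NUP98-HOXD13 tumours 10.82, 10.02 and 7.98, and Tal1-LMO2 tumours 10.10, 8.15 and 10.82, where 8.15 is the array that stood alone by its controls. p53 knockout tumours had a mean of 10.36, TLX1 9.98, E2A knockout 9.92, Tal1 9.90, Tal1-LMO2 9.69, ThPOK 9.63, NUP98-HOXD13 9.61 and Ikaros plastic 9.18. No step between neighbouring means exceeded the SD within backgrounds.

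**Figure D3:**
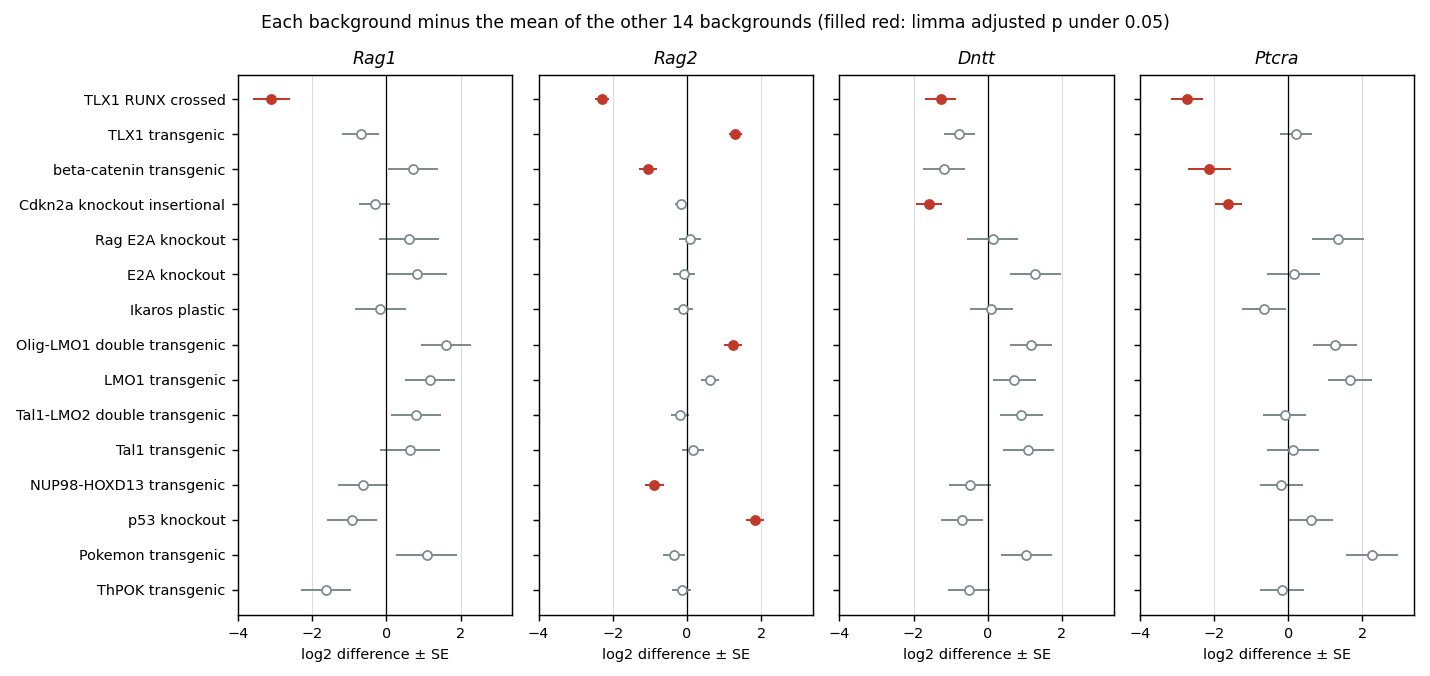
Log2 difference (horizontal axis) of each member between a background and the mean of the other 14 backgrounds, with its SE, backgrounds down the page. Filled red points passed the test: 6 for Rag2, 3 for Ptcra, 2 for Dntt and 1 for Rag1.

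Crossed tumours had the lowest mean of all backgrounds for Rag1, Rag2 and Ptcra. Rag1 fell by 3.10 ± 0.49 on the log2 scale against the other 14 backgrounds (adjusted p = 6.81e-07, 63.6% of genes called). Its values were 7.92, 7.94, 8.03, 8.92, 10.68 and 7.87 for replicates 1 to 6, against a lowest value of 9.25, a median of 11.31 and a highest value of 11.85 in TLX1 tumours. Crossed replicate 5 lay among the TLX1 samples and the other 5 lay below all of them. With each array centred on its median, crossed replicate 4, at 0.303, also lay above TLX1 replicate 1, at 0.294.

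Crossed and TLX1 tumours differ in RUNX genotype, in the status label for TLX1 and in array set, and a comparison of the groups cannot tell these apart. Against TLX1 tumours, crossed tumours differed for Rag2 by -3.36 ± 0.14 (adjusted p = 1.31e-09), for Ptcra by -2.74 ± 0.43 (adjusted p = 0.000125) and for Rag1 by -2.25 ± 0.57 (adjusted p = 0.00477), with 54.2% of genes called. Dntt differed by -0.47 ± 0.56 and did not pass (adjusted p = 0.499). Its values were 9.56 to 12.41 with a median of 10.36 in crossed tumours, against 8.91 to 12.13 with a median of 11.37 in TLX1 tumours, so the groups overlapped. For Rag2 and Ptcra they did not: the highest crossed values were 7.27 and 7.33, against lowest TLX1 values of 10.07 and 8.44.

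The crossed samples were not alike. Crossed replicate 5 had the highest Rag1 and the highest Dntt of its group, at 10.68 and 12.41, with Rag2 at 7.27 and Ptcra at 7.15. Without it the difference from TLX1 tumours was -2.67 for Rag1 (adjusted p = 0.000540) and -0.85 for Dntt (adjusted p = 0.171). Without crossed replicate 1, whose mean level of myeloid markers, 12.41, was the highest of all arrays, the differences were -2.12 for Rag1 (adjusted p = 0.0112), -3.39 for Rag2 and -2.73 for Ptcra.

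Against the 41 samples of the other 13 backgrounds, crossed tumours differed by -3.04 ± 0.54 for Rag1 (adjusted p = 5.47e-06), -2.19 ± 0.32 for Rag2 (1.32e-07), -2.40 ± 0.59 for Ptcra (0.00058) and -1.03 ± 0.52 for Dntt (0.0883), with 55.8% of genes called. With background as a random block Ptcra no longer passed (-2.67, adjusted p = 0.0664). Since crossed arrays fill an array set of their own, genotype and array set cannot be told apart in these comparisons. The crossed samples had a mean T-lineage marker level of 10.41 to 11.60, against 11.66 to 11.96 in TLX1 tumours. Marker levels are not centred, and array medians were 8.56 to 8.66 in crossed and 8.91 to 9.07 in TLX1 tumours. Of the 8 T-lineage markers, 6 to 8 lay above the array median on crossed arrays and 7 or 8 on TLX1 arrays. The ranges of level alone therefore do not set the groups apart in T-lineage signal. The mean level of 7 myeloid markers was 9.29 to 12.41 in crossed tumours, against 9.59 to 10.82 in TLX1 tumours. The mean level of the 2 erythroid markers measured was 7.47 to 7.87 in crossed tumours, against 8.88 to 9.78 in TLX1 tumours, with no overlap. It was 9.04 to 10.67 in p53 knockout tumours, which were also high for Rag2. Olig-LMO1 tumours, high for Rag2 as well, had 8.10 to 8.68. Tal1-LMO2 replicates 2 and 3 had 9.32 and 9.88, with Rag2 at 9.10 and 8.41. The part of other cells in the differences of crossed tumours was not tested.

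TLX1 tumours differed from the 41 in Rag2 (1.17 ± 0.32, adjusted p = 0.00436, 32% of genes called). Rag1 (-0.79 ± 0.54, adjusted p = 0.271), Dntt (-0.56 ± 0.53, adjusted p = 0.443) and Ptcra (0.33 ± 0.62, adjusted p = 0.715) did not pass. The Rag2 difference turned in sign with array set as a block. That fit, in which TLX1 tumours are set beside p53 knockout replicates 1 and 2, gave -0.36 ± 0.55 (adjusted p = 0.788). It also missed the threshold with background as a random block (1.14 ± 0.53, adjusted p = 0.281). Rag1 was uneven among TLX1 tumours. Replicates 1 and 6 read 9.25 and 9.50, and their Ptcra, 8.44 and 8.99, was the lowest of the group, with Rag2 at 10.16 and 10.69.

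Tumours that lack E2A were compared in both ways that the labels allow. In Rag E2A knockout tumours Rag1 read 12.15 and 11.89 and Rag2 read 9.32 and 9.16, against 12.47 and 11.98 for Rag1 and 9.77 and 8.38 for Rag2 in E2A knockout tumours. The ranges of Rag2 overlapped, and those of Rag1 did too. The differences were -0.20 ± 1.13 for Rag1 and 0.16 ± 0.41 for Rag2. Whether the probe sets lie inside the deleted part of the Rag gene is not known here, so these readings do not check the label. Dntt read 11.54 and 12.14 in Rag E2A knockout tumours, against 13.09 and 12.76 in E2A knockout tumours (-1.08 ± 0.95). Ptcra read 9.85 and 12.23, against 11.39 and 8.45 (1.12 ± 0.97). No member passed, nor did any of 9156 genes in limma (0% of genes called; 436 had an unadjusted p under 0.05), with 2 samples on each side.

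TAL1 binds E proteins and LMO proteins join it in complexes, so backgrounds that lack E2A were also set against those with TAL1 or LMO transgenes. E2A-deficient backgrounds differed from the TAL1 and LMO backgrounds by -0.31 ± 0.66 for Rag1, -0.43 ± 0.24 for Rag2 (adjusted p = 0.523), -0.25 ± 0.56 for Dntt and 0.01 ± 0.57 for Ptcra. None passed, with 1.46% of genes called. Tcf3 encodes the E2A proteins. Against the other backgrounds it was at -0.72 ± 0.21 in Rag E2A knockout tumours, which missed the threshold (adjusted p = 0.0628), and it fell by 0.86 ± 0.21 on the log2 scale in E2A knockout tumours (adjusted p = 0.0187). Ikaros plastic tumours, named for the Ikaros gene, had no member past the test, with 32.2% of genes called. Their differences were -0.16 for Rag1, -0.09 for Rag2, 0.10 for Dntt and -0.65 for Ptcra.

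Within the largest array set alone, where 13 backgrounds remain and p53 knockout has 1 array, 10 of 52 pairs passed, and 7 of them, with the single p53 knockout array among them, were also called over all arrays. Between 2.39% and 51.4% of all genes were called in the comparisons of that set, so the count of 10 is not read as particular to the members. Added there were Dntt in beta-catenin tumours and Rag1 in ThPOK tumours, given above, and Rag1 in Cdkn2a knockout tumours (-0.85 ± 0.35, adjusted p = 0.0416, 51.4% of genes called). That last call was lost in 5 of 9 fits that each left out 1 Cdkn2a array, and without replicate 8 the difference was -0.47 ± 0.27 (adjusted p = 0.153). Calls of Rag2 there included NUP98-HOXD13 tumours (-0.98 ± 0.28, adjusted p = 0.0409, 4.9% of genes called) and Olig-LMO1 tumours (1.17 ± 0.28, adjusted p = 0.00555, 18.5% of genes called). No member passed there in Ikaros plastic (40.1% of genes called), LMO1 (24.3%), Rag E2A knockout (7.55%), Tal1 (6.05%), Pokemon (5.01%), E2A knockout (4.79%) or Tal1-LMO2 tumours (2.39%). The falls of Ptcra passed there too, at -2.56 ± 0.56 in beta-catenin (42% of genes called) and -2.04 ± 0.35 in Cdkn2a knockout tumours (51.4%).

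The members correlated over the 53 arrays in 5 of 6 pairs, with permutation tests adjusted over the 6 pairs. Arrays were shuffled without regard to background, so samples of the same background count as independent and these p-values may be too small. The same holds for the largest set and for the 41 samples without TLX1 and crossed tumours. Values permuted within backgrounds are given below. Pearson's r was 0.63 for Rag1 with Dntt, 0.61 for Dntt with Ptcra, 0.60 for Rag1 with Ptcra and 0.59 for Rag2 with Ptcra, each with an adjusted p of 1.5e-05 (p = 1e-05 before adjustment, the smallest these permutations can give). It was 0.43 for Rag1 with Rag2 (adjusted p = 0.00161) and 0.25 for Rag2 with Dntt (adjusted p = 0.0704). Spearman's rho in the same order was 0.67, 0.64, 0.63, 0.56, 0.32 and 0.30. Without the 2 arrays farthest from the median of the first-named member, r was 0.58, 0.68, 0.59, 0.54, 0.49 and 0.20.

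The crossed arrays lie apart from the rest, so the values within array sets are given beside these. Within the largest set of 38, r was 0.72 for Dntt with Ptcra, 0.59 for Rag1 with Dntt, 0.49 for Rag1 with Ptcra, 0.47 for Rag2 with Ptcra, 0.43 for Rag1 with Rag2 and 0.34 for Rag2 with Dntt, all past the threshold (highest adjusted p = 0.0386). In the TLX1 set of 8 the pair of highest r was Rag1 with Ptcra (0.78, exact permutation p = 0.0223, adjusted 0.134), and Rag1 with Rag2 was at -0.24. In the crossed set of 6, Rag1 with Dntt reached 0.93 (exact permutation p = 0.0389, adjusted 0.117), and Rag2 with Ptcra was at -0.87 (exact p = 0.0139, adjusted 0.0833). No pair passed in these small sets.

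Rag1 and Rag2, which neighbour each other in the genome and whose proteins work as a pair, were among the less related. Over the 41 samples without TLX1 and crossed tumours their r was 0.16 (adjusted p = 0.334). These 41 are the largest set of 38, where it was 0.43, with p53 knockout replicates 1 and 2 and Tal1-LMO2 replicate 2 added. Of the added arrays, p53 knockout replicate 2, with few T-lineage markers, read 7.47 for Rag1 and 10.64 for Rag2. Its part in the lower r was not tested. Over the same 41 samples, Rag1 with Dntt (0.65) and Dntt with Ptcra (0.66) were close to their values over all arrays. After subtraction of the background means, Rag1 went with Dntt (0.61, adjusted p = 0.0111), with Ptcra (0.51, 0.0111) and with Rag2 (0.26, 0.0372), and Dntt went with Ptcra (0.40, 0.0372), by permutation within backgrounds. Rag2 with Ptcra (0.15, adjusted p = 0.441) and Rag2 with Dntt (0.12, 0.368) did not pass. Over the 15 background means, as a description, r was 0.71 for Rag1 with Dntt, 0.70 for Dntt with Ptcra, 0.63 for Rag2 with Ptcra, 0.60 for Rag1 with Ptcra, 0.39 for Rag1 with Rag2 and 0.29 for Rag2 with Dntt.

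**Figure D4:**
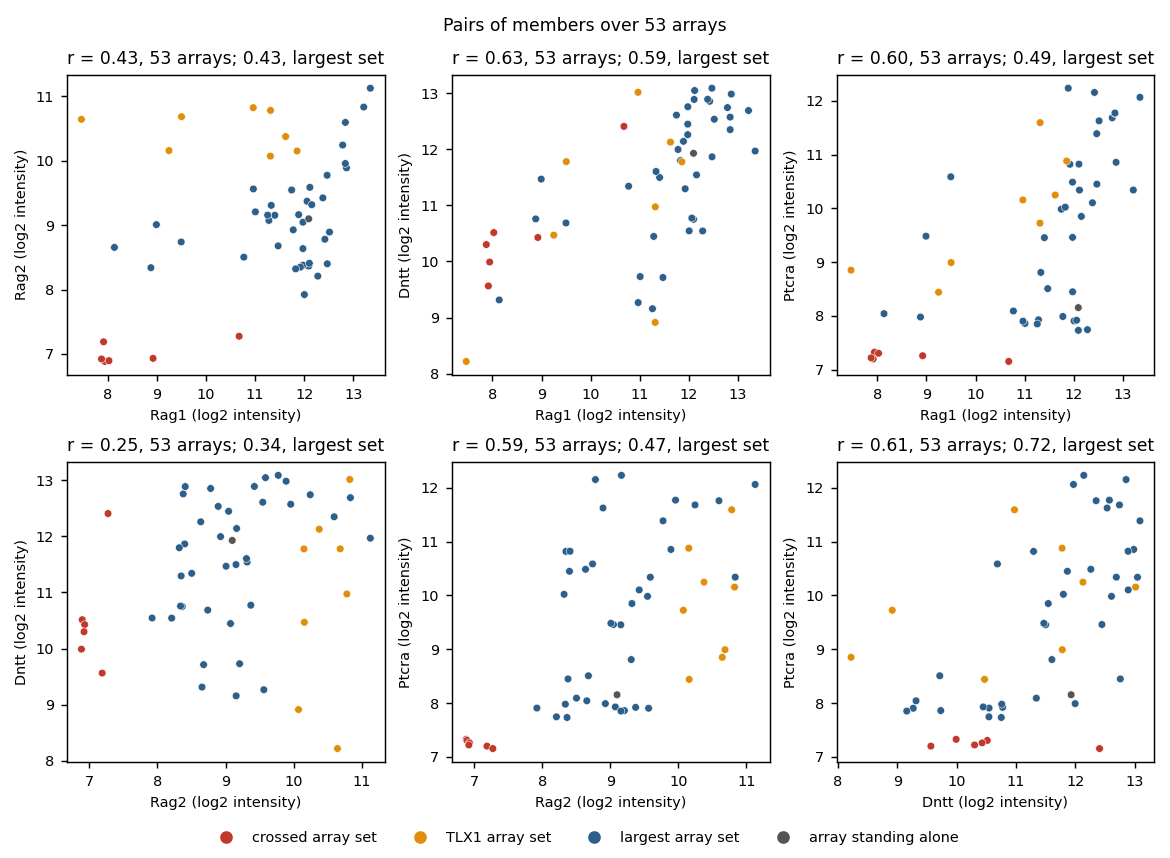
Levels of each pair of members (log2 intensity on both axes), 1 point per array and colours for the array sets. Each panel gives r over 53 arrays and within the largest set, from 0.25 and 0.34 for Rag2 with Dntt to 0.61 and 0.72 for Dntt with Ptcra.

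The genes whose levels ran most like each member over the 53 arrays were taken by Pearson's r among 8717 genes, as a description. For Rag1 they were the co-receptor genes Cd8a (0.80) and Cd8b1 (0.79), then Arsi (0.71), Hdgfl3 (0.69) and Rmnd5a (0.68). Within the largest set they were Rsrc2 (0.71), Cnot6 (0.70) and Dck (0.68), which encodes deoxycytidine kinase, and Cd8a stood at 0.58. For Dntt they were Synj2bp (0.73), Tmem186 (0.70), Nfyc, Asxl1 and Mphosph8 (0.68 each), and within the largest set Atp6v0a2 (0.81), Bcl11b (0.80), a T-lineage commitment factor, and Notch1 (0.80). For Ptcra they were the purinergic receptor gene P2rx1 (0.82), Ddx54 (0.81), the Notch pathway gene Dtx1 (0.81), Stra8 (0.81) and Arhgef10l (0.76), and within the largest set Stra8 (0.87), P2rx1 (0.86) and Hdgfl3 (0.86).

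The genes closest to Rag2 over all arrays had lower r within the largest set. They were Cdc16 (0.80), Purb, Ino80b, Noc4l and Ube2v1 (0.79 each), and in that set they stood at 0.29, 0.32, 0.21, 0.50 and 0.24. The closest within that set were Morc1 (0.73), Mib2 (0.69), a ubiquitin ligase, and Trim44 (0.63). The genes closest to Rag1 also had lower r there: Cd8a and Rmnd5a 0.58 each, Cd8b1 0.51, Hdgfl3 0.46 and Arsi 0.43. For the 5 closest genes of Ptcra, r within the largest set was 0.73 or more.

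Related genes were described by list, with counts of those called and the median difference beside that of all genes. In crossed against TLX1 tumours the median gene was at -0.12 and 54.2% of all genes were called, the share to set beside the counts of each list. Of 7 end-joining genes measured past the filter, 2 rose, Hmgb2 (0.64 ± 0.13), a cofactor of RAG cutting, and Prkdc (0.59 ± 0.12), the DNA-dependent protein kinase, and 1 fell, the ligase cofactor gene Xrcc4 (-0.46 ± 0.09). Of 9 partners and signalling genes of the pre-T-cell receptor, 5 fell and none rose, with a median of -0.60. Among them were Cd3d (-1.69 ± 0.55), Cd3e (-0.88 ± 0.11), the kinase gene Zap70 (-0.73 ± 0.14) and Fyn (-1.57 ± 0.17). The median of the end-joining genes was -0.10, beside differences of -2.25 for Rag1 and -3.36 for Rag2.

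Of 14 regulators, 6 fell and 2 rose in crossed against TLX1 tumours, with a median of -0.41. Notch1 (-1.95 ± 0.55), Ikzf1 (-1.93 ± 0.23), which encodes Ikaros, and Lef1 (-1.04 ± 0.34) fell, and Id2 (1.69 ± 0.31), an inhibitor of E proteins, rose. Runx1, the gene named in the titles of crossed tumours, fell too (-0.76 ± 0.11, adjusted p = 8.27e-05). Of 7 genes of the double-negative stage 4 fell, Dtx1 (-3.38 ± 0.56), Kit (-2.09 ± 0.28), Notch3 (-1.95 ± 0.46) and Hes1 (-1.05 ± 0.32), with a median of -1.65. Of 6 genes of the double-positive stage 3 fell, Cd8a (-2.04 ± 0.39), Cd4 (-1.84 ± 0.22) and Cd8b1 (-1.63 ± 0.41), with a median of -1.05. These counts lie near the 54.2% called over all genes.

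In TLX1 tumours against the 41 the lists were mixed, with the median gene at 0.03 and 32% of all genes called. Of the end-joining genes, Xrcc4 (0.38 ± 0.09) rose and Polm (-0.89 ± 0.20), a polymerase related to TdT, fell. Of the pre-T-cell receptor partners, the kinase gene Syk (0.65 ± 0.24) rose and the adaptor gene Lcp2 (-0.40 ± 0.15) fell. Among regulators Bcl11b (1.08 ± 0.34) and Foxo1 (0.48 ± 0.18) rose and Lef1 (-1.22 ± 0.41) and Runx1 (-0.52 ± 0.20) fell. Of the double-negative stage, Il7r (1.25 ± 0.45) and Kit (1.05 ± 0.23) rose. Of the double-positive stage Cd1d1 (0.74 ± 0.21) rose, and Cd8b1 (-1.22 ± 0.44) and Ets2 (-0.80 ± 0.28) fell.

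The stage lists are given for the other backgrounds with low Ptcra. In beta-catenin tumours, where 36% of all genes were called, 4 of 7 double-negative genes fell and none rose, with a median of -1.22 against 0.02 for all genes. Of 6 double-positive genes 3 rose and 2 fell there, with a median of 0.71. In Cdkn2a knockout tumours, where 48.3% of all genes were called, 4 of 7 double-negative genes fell and none rose, with a median of -1.16 against 0.05 for all genes. Of the double-positive genes 2 rose and 3 fell there, with a median of -0.07. No test was made of the difference between these medians.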

How the data were processed

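Total RNA of 53 mouse T-cell lymphoblast tumours was extracted with Trizol and labelled as biotin cRNA, per the labels' protocols. The authors deposited normalized intensity values on a linear scale, by a method not given in the sources used here. That choice can shift the overall level of one group against another. Intensities were converted to log2. The number of arrays limits the precision. Array medians ran from 377 to 590 (intensity), and no arrays were identical (highest r = 0.988).

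Of 22690 probe sets, 20380 had 1 gene symbol, 691 several, 1555 none and 64 were controls; 20351 were updated by Entrez identifier. The brightest probe set stood for a gene (4956 of 12393 genes have several), and 9156 genes were tested, each brighter than the array median on 3 arrays or more. Differences were tested with limma 3.58.1 (lmFit, eBayes) under R 4.3.3. Tests were two-sided, p-values were adjusted by Benjamini-Hochberg over all genes, and the threshold was 0.05. Correlations used 100000 permutations in NumPy 2.4.6, exact in sets of 8 or fewer, and SciPy 1.17.1 adjusted their p-values. Matplotlib 3.10.9, pandas 2.3.3 and statmod 1.5.0 were also used. The pipeline was tested on simulated data. Array sets came from average-linkage clustering on 27 bacterial control probe sets, cut at 4.

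The members, lists, array sets and tests were chosen with earlier results of these data known. Named genes are the members, the 5 genes of highest r over all arrays and the 3 within the largest set for each member, up to 4 called genes a list in TLX1 against the other backgrounds or crossed against TLX1 tumours, and Tcf3, Runx1 and Ikzf1. No sex-linked gene, receptor segment or unnamed transcript was named. Replicate numbers come from the titles, except that Cdkn2a knockout samples are numbered in accession order. Alternatives were other filters, probe sets and scalings, trended and robust eBayes, array set or replicate number as a block, background as a random block, the largest set alone, and leaving out each array. Centred steps between background means, centred values of samples, and Cdkn2a leave-outs within the largest set were added after seeing the data. An array left alone in its background is assumed to vary like the others.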

Additional observations from a re-analysis of the deposited data

Results flagged for a closer look

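Levels that stood apart from their group were sought by Dixon's criterion in the 12 groups of 4 to 10 samples (3 backgrounds for each of 4 members). Of these, 4 had one, where chance gives about 1 in 20 if levels are normal and groups independent. The groups are not independent, since crossed replicate 5 gave both the Rag1 and the Dntt one of its background. Its Rag1 level passed the criterion only narrowly. In Cdkn2a knockout tumours, replicate 8 had a Rag1 level of 8.14, and the nearest of the other 8 read 10.97. Its title names pim1 and ccnd3, and 5 of 8 B-lineage and 8 of 8 T-lineage markers lay above its array median. Without it the Rag1 difference of Cdkn2a knockout tumours from the other backgrounds was 0.06, against -0.32 with it, and neither passed.

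In the same background replicate 7, whose title names a myc mix, had a Ptcra level of 10.45, with the nearest at 8.51. Without it the Ptcra difference was -1.89 (adjusted p = 2.94e-05).

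Crossed replicate 5 was far from its group for Rag1, at 10.675 with the nearest at 8.92, and for Dntt, at 12.41 with the nearest at 10.52. Its Rag2 and Ptcra levels lay within 0.1 of another crossed sample. It had 3 of 8 B-lineage markers above the array median, against 1 or 2 in the other crossed samples. Its mean T-lineage marker level was the highest of the group (11.60, the others 10.41 to 11.50) and its myeloid level the lowest (9.29, the others 9.60 to 12.41). The mean level of 4 plasmacytoid dendritic cell markers was highest in it too, at 10.60, with crossed replicate 6 at 10.52. The part of other cells in these levels was not tested.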

How the results depend on the processing

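Under alternatives other than left-out arrays, 434 values kept direction and side of the threshold, 9 turned in sign, 11 lost the call and 10 gained one. With an array left out, 1539 kept both, 11 turned, 16 lost the call and 14 gained one. Pairs of member and background that passed numbered 12, with 8 to 13 under the alternatives and 11 to 15 with an array left out (15 without p53 knockout replicate 2 or 3). TLX1 tumours against the others, with array set as a block, gave -0.36 for Rag2, 1.59 for Rag1 and 0.39 for Dntt, all turned in sign. Background as a random block ended the calls of Rag2 in TLX1 (1.14) and Ptcra in crossed tumours (-2.67) against the others. The Rag1 F test fell to 1.82 without TLX1 and crossed arrays. Dntt in crossed against TLX1 tumours turned to 0.34 by its dimmest probe set. Correlations changed side for Rag1 with Rag2 (0.16 without TLX1 and crossed arrays), Rag2 with Ptcra (0.15 within backgrounds) and Rag2 with Dntt (0.30 by Spearman, 0.34 in the largest set, 0.28 after quantile normalization). Ptcra in E2A-deficient against TAL1 and LMO backgrounds turned to -0.19 in the largest set and with array set as a block. The call of Rag2 in TLX1 tumours against the mean of the other backgrounds was lost with array set as a block (1.52). Centring moved the Rag2 step between beta-catenin and crossed tumours to 0.68, and leaving out Cdkn2a arrays within the largest set gave -1.01 to -0.47 for Rag1, both chosen after seeing the data. The causes were not tested.

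Samples with the same number in crossed and TLX1 tumours did not deviate together (r from -0.19 to 0.15, 1 of 6 best matched by its own number), so they share only a number. A replicate block, without the Cdkn2a arrays, gave Rag2 1.04 (adjusted p = 0.141) and Ptcra -0.54 in TLX1 tumours against the others and Dntt -1.87 (adjusted p = 0.00705) in crossed tumours against the others. It gave Ptcra -0.0675 in Rag E2A knockout against E2A knockout tumours and -0.42 in E2A-deficient against TAL1 and LMO backgrounds.

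Leaving out arrays gave -1.40 to -0.83 for Dntt in crossed tumours against the others, past the threshold without replicate 5. In Rag E2A knockout against E2A knockout tumours it gave -0.45 to 0.0444 for Rag1, -0.53 to 0.86 for Rag2 and -0.35 to 2.59 for Ptcra, and for Ptcra in E2A-deficient against TAL1 and LMO backgrounds -0.73 to 0.74. Rag2 in NUP98-HOXD13 tumours also missed the threshold with quantile normalization (-0.78) and centring (-0.84). Ptcra in LMO1 tumours passed with no filter (adjusted p = 0.0426). Dim readings such as Ptcra in crossed tumours lie below the array median, and no detection calls were used, so how far they exceed background is not known.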
